A study of Homo sapiens with 7 samples.

Results

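The nuclear genes of the oxidative phosphorylation (OXPHOS) machinery were examined for RUNX2 binding and H3K27 acetylation in the T-cell acute lymphoblastic leukemia (T-ALL) lines KARPAS-45 and PER-117. Members were the protein-coding genes of chromosomes 1 to 22 and X in RefSeq whose symbol begins with NDUF, UQCR, ATP5 or COX4 to COX8, or is SDHA, SDHB, SDHC or SDHD. This gave 96 of 19974 protein-coding genes: 38 of complex I, 8 assembly factors of complex I (the NDUFAF genes), 4 of complex II, 9 of complex III, 17 of complex IV and 20 of complex V. The symbols describe the proteins well, with a few exceptions that the rule takes in or leaves out: ATP5IF1 is an inhibitor of ATP synthase, NDUFC2-KCTD14 and ATP5MF-PTCD1 are read-through genes, and the subunit long known as NDUFA4 stands in RefSeq as COXFA4 and falls outside. Of the 96 genes, 4 lie on chromosome 8, and these are counted but not named, as are any others not reported here.

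KARPAS-45, a T-ALL line that carries a KMT2A rearrangement, was grown with 20% fetal bovine serum, and PER-117, another T-ALL line, with 10%. In each line 1 chromatin immunoprecipitation library was made with an antibody to RUNX2 and 1 with an antibody to H3K27ac, so every value below comes from 1 library, no difference between lines has a replicate check, and no test was made. Each line stands for the leukemia of 1 person, and the labels name no treatment. The 3 input libraries were not analysed here. The authors' KARPAS-45 lists held 42911 RUNX2 intervals and 63265 H3K27ac regions over 166.69 Mb, and their PER-117 lists 21027 RUNX2 intervals and 53263 H3K27ac regions over 76.25 Mb. Read depth is unknown, so a gene without a peak is a gene at which none was called. As a check of the T-cell label, H3K27ac stood at an end of 10 of 10 T-lineage markers, 3 of 6 B-lineage, 0 of 6 myeloid and 1 of 5 erythroid markers in KARPAS-45. In PER-117 it stood at 9 of 10 T-lineage markers (CD5 was without it), 4 of 6 B-lineage, 1 of 6 myeloid and 2 of 5 erythroid markers. Of the protein-coding genes outside OXPHOS, 60.9% carried the mark at an end in KARPAS-45, against 55.3% in PER-117. Beside these shares the B-lineage counts were not clearly low, and with so few markers the check is a rough one.

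Oxidative phosphorylation takes electrons from NADH at complex I and from succinate at complex II, passes them by way of complex III to oxygen at complex IV, and uses the proton gradient this builds to make ATP at complex V, the ATP synthase. Most subunits are encoded in the nucleus, are made in almost every cell and are expressed from compact CpG-rich promoters, while a few complex IV subunits have isoforms restricted to muscle, lung, brain or testis. RUNX2 is a Runt-domain transcription factor known best from bone formation, and H3K27ac marks active promoters and enhancers.

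The promoters below show what the RUNX2 peaks of these genes lie on: complex II is shown because its genes were chosen in full, apart from SDHC, for which the sequence table has no entry, and each other complex by the gene with the strongest binding in both lines among those with an entry. Each run is the 250 bases before the annotated start, read 5′ to 3′ on the gene's strand, from RefSeq on GRCh38.p14 (hg38). Capitals mark the RUNX core TGTGGT, the core CCGGAAG of ETS factors, the core of NRF1 (the longer of the SDHD runs) and the core AAGATGGCG of YY1, each searched on both strands. NRF1, YY1 and the ETS factor GABP are known regulators of respiratory chain genes.
SDHA, chr5:218070-218319, plus strand: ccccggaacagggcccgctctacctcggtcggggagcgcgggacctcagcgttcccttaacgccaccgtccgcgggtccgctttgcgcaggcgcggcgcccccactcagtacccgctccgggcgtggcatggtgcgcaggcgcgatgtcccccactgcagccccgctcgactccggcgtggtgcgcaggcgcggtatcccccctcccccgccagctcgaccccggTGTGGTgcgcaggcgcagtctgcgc
SDHB, chr1:17054033-17054282, minus strand: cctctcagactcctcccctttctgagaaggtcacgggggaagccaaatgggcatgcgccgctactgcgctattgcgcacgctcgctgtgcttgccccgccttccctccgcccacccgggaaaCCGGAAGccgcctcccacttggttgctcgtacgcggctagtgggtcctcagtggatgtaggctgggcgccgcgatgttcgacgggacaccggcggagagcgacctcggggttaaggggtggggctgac
SDHD, chr11:112086623-112086872, plus strand: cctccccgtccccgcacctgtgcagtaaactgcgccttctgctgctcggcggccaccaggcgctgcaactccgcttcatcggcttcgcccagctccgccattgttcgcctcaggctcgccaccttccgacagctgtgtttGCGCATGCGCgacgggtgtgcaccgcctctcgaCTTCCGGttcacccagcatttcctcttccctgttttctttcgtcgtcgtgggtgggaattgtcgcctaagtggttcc
NDUFS7, chr19:1383657-1383906, plus strand: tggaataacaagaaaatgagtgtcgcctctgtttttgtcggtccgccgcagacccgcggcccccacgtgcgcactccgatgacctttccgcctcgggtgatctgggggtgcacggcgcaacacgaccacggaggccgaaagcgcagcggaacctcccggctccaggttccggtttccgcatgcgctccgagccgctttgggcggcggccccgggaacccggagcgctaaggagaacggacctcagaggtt
UQCRH, chr1:46303448-46303697, plus strand: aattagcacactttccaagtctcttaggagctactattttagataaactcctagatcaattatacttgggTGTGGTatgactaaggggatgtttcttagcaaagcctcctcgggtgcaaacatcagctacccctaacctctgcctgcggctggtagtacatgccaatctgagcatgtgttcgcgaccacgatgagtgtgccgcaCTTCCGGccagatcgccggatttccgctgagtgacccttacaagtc
COX8A, chr11:63974370-63974619, plus strand: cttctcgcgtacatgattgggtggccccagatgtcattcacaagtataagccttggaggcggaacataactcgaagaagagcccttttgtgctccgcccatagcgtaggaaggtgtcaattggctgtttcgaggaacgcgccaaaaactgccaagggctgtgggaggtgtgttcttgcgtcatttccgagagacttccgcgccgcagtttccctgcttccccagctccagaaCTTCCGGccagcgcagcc
ATP5F1E, chr20:59032336-59032585, minus strand: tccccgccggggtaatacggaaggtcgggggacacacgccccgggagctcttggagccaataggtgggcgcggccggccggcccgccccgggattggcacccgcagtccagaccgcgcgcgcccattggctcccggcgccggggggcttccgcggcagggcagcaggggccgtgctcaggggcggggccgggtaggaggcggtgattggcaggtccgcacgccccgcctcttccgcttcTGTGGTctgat

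The SDHA stretch holds 1 RUNX core, which begins at position -25, where -1 is the base just before the start, and the UQCRH stretch holds 1 that begins at -180. ATP5F1E has a RUNX core that begins at -11, while SDHB, SDHD, NDUFS7 and COX8A have none in the letters shown. SDHD holds the NRF1 core and the ETS core, SDHB and COX8A the ETS core, and NDUFS7 none of the 4 cores. A match is only a string of letters, and the absence of one in this window says nothing on where RUNX2 bound.

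RUNX2 was called within 1 kb of either end of a gene, here called bound, at 71 of 96 OXPHOS genes in KARPAS-45 (74.0%, Wilson 95% interval 64.4 to 81.7%), against 48.2% of the other 19878 protein-coding genes. In PER-117 it was called at 55 of 96 (57.3%, interval 47.3 to 66.7%), against 32.4% of the others. The same 51 genes were bound in both lines (53.1%, against 29.0% of the others), 20 in KARPAS-45 only (20.8%, against 19.2%), 4 in PER-117 only (4.17%, against 3.35%) and 21 in neither (21.9%, against 48.4%). Of OXPHOS genes bound in KARPAS-45, 71.8% were bound in PER-117 as well (other genes, 60.2%), and of those bound in PER-117, 92.7% were bound in KARPAS-45 (other genes, 89.7%). The line-specific counts depended on the length of the RUNX2 lists: when only as many of the strongest KARPAS-45 intervals were kept as PER-117 has, 7 OXPHOS genes were bound in KARPAS-45 only (7.29%, against 7.62% of the others) and 20 in PER-117 only (20.8%, against 12.5%). These intervals cover counting over genes only, and genes that share a promoter are not independent.

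H3K27ac lay at a gene end of 89 OXPHOS genes in KARPAS-45 (92.7%, interval 85.7 to 96.4%, against 60.9% of the other genes) and of 85 in PER-117 (88.5%, interval 80.6 to 93.5%, against 55.3%). All 85 of PER-117 were also acetylated in KARPAS-45, as were 10274 of the 10999 other genes acetylated in PER-117. Over all genes, 88.5% of OXPHOS genes were acetylated in both lines, against 51.7% of the others. The mark stood at 4 genes in KARPAS-45 only, 4.17%, against 9.21% of the others, at 0 in PER-117 only, against 3.65%, and at 7 in neither line, against 35.5%. These line-specific counts depended on the threshold of the lists. With H3K27ac regions of -log10 q of at least 2, the mark lay at 74 OXPHOS genes in KARPAS-45, 84 in PER-117 and 71 in both. No like count of other genes is given for this threshold. In the full lists, every one of the 75 OXPHOS genes bound in at least 1 line was acetylated in both lines. Among other genes, 5595 of the 5773 bound in both lines were acetylated in both. So were 2765 of 3809 bound in KARPAS-45 only and 471 of 666 bound in PER-117 only. Counted in the line of binding alone, 95.6% of other genes bound in KARPAS-45 were acetylated, and 97.5% of those bound in PER-117.

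The gap to other genes was smaller when acetylated genes were set against acetylated genes. In KARPAS-45, 71 of 89 acetylated OXPHOS genes were bound (79.8%, interval 70.3 to 86.8%), against 75.7% of 12104 other acetylated genes, a difference of 4.1 percentage points with an interval of -5.4 to 11.2. In PER-117, 55 of 85 were bound (64.7%, interval 54.1 to 74.0%), against 57.1% of 10999 others, a difference of 7.62 points with an interval of -3.0 to 17.0. Both intervals include 0, so a difference was not detectable with this number of genes. The 85 OXPHOS genes acetylated in both lines were bound in 83.5% of cases in KARPAS-45, against 81.4% of other such genes, and in 64.7% in PER-117, against 59.0%. By line, 60.0% of them were bound in both (other genes, 54.5%), 23.5% in KARPAS-45 only (26.9%), 4.71% in PER-117 only (4.58%) and 11.8% in neither (14.0%).

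Other housekeeping groups gave similar or higher shares among their acetylated genes. In KARPAS-45, RUNX2 was bound at 84.0% of mitochondrial ribosome genes, 78.9% of proteasome genes and 95.3% of cytosolic ribosome genes. In PER-117 it was bound at 72.0%, 64.9% and 84.5% of these groups in the same order. The cytosolic ribosome shares lay above the Wilson interval of the OXPHOS share in the same line.

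**Figure D1:**
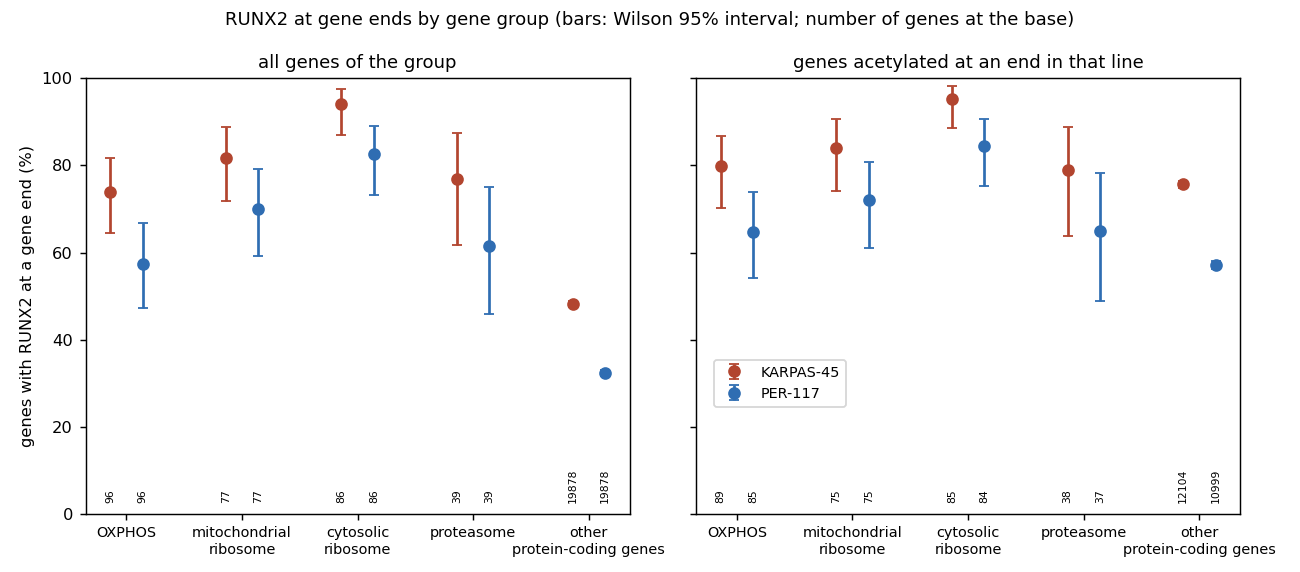
Share of genes with RUNX2 within 1 kb of a gene end (y axis, percent) for OXPHOS genes, 3 other housekeeping groups and all other protein-coding genes, over all genes (left) and over genes acetylated in that line (right); points are shares of 1 library, bars Wilson 95% intervals, and numbers at the base the genes counted. Over all genes OXPHOS stands at 74.0% against 48.2% of other genes in KARPAS-45, and at 57.3% against 32.4% in PER-117; over acetylated genes it stands at 79.8% against 75.7%, and at 64.7% against 57.1%.

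Counted over all its genes, complex IV had the lowest share of bound genes in each line. Over genes outside OXPHOS the share was 48.2% in KARPAS-45 and 32.4% in PER-117. RUNX2 was bound in KARPAS-45 at 32 of 38 complex I genes (84.2%, interval 69.6 to 92.6%), 6 of 8 assembly factors, 4 of 4 complex II genes, 6 of 9 of complex III, 15 of 20 of complex V (75.0%, interval 53.1 to 88.8%) and 8 of 17 of complex IV (47.1%, interval 26.2 to 69.0%). In PER-117 the counts were 25 of 38 for complex I (65.8%), 5 of 8 assembly factors, 3 of 4 for complex II, 5 of 9 for complex III, 13 of 20 for complex V (65.0%) and 4 of 17 for complex IV (23.5%, interval 9.56 to 47.3%). H3K27ac also stood at fewer complex IV genes: in KARPAS-45 at 12 of 17, with 37 of 38 for complex I and 20 of 20 for complex V, and in PER-117 at 10 of 17, with 37 of 38 and 18 of 20. Among genes acetylated in that line, complex IV was bound at 8 of 12 in KARPAS-45 (66.7%, interval 39.1 to 86.2%), beside 86.5% of complex I, and at 4 of 10 in PER-117 (40.0%, interval 16.8 to 68.7%), beside 67.6%. Among genes acetylated in both lines, complex IV was bound at 8 of 10 in KARPAS-45 (80.0%), above complex III and the assembly factors (75.0% each). In PER-117 it was bound at 4 of 10 such genes (40.0%), the lowest share. The 17 genes include tissue-restricted isoforms. COX7A2L in both lines and COX7A2 in KARPAS-45 had RUNX2 at a start inside the span and count here as unbound. Complex I counts NDUFC2 and the read-through gene NDUFC2-KCTD14 by the same peaks.

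**Figure D2:**
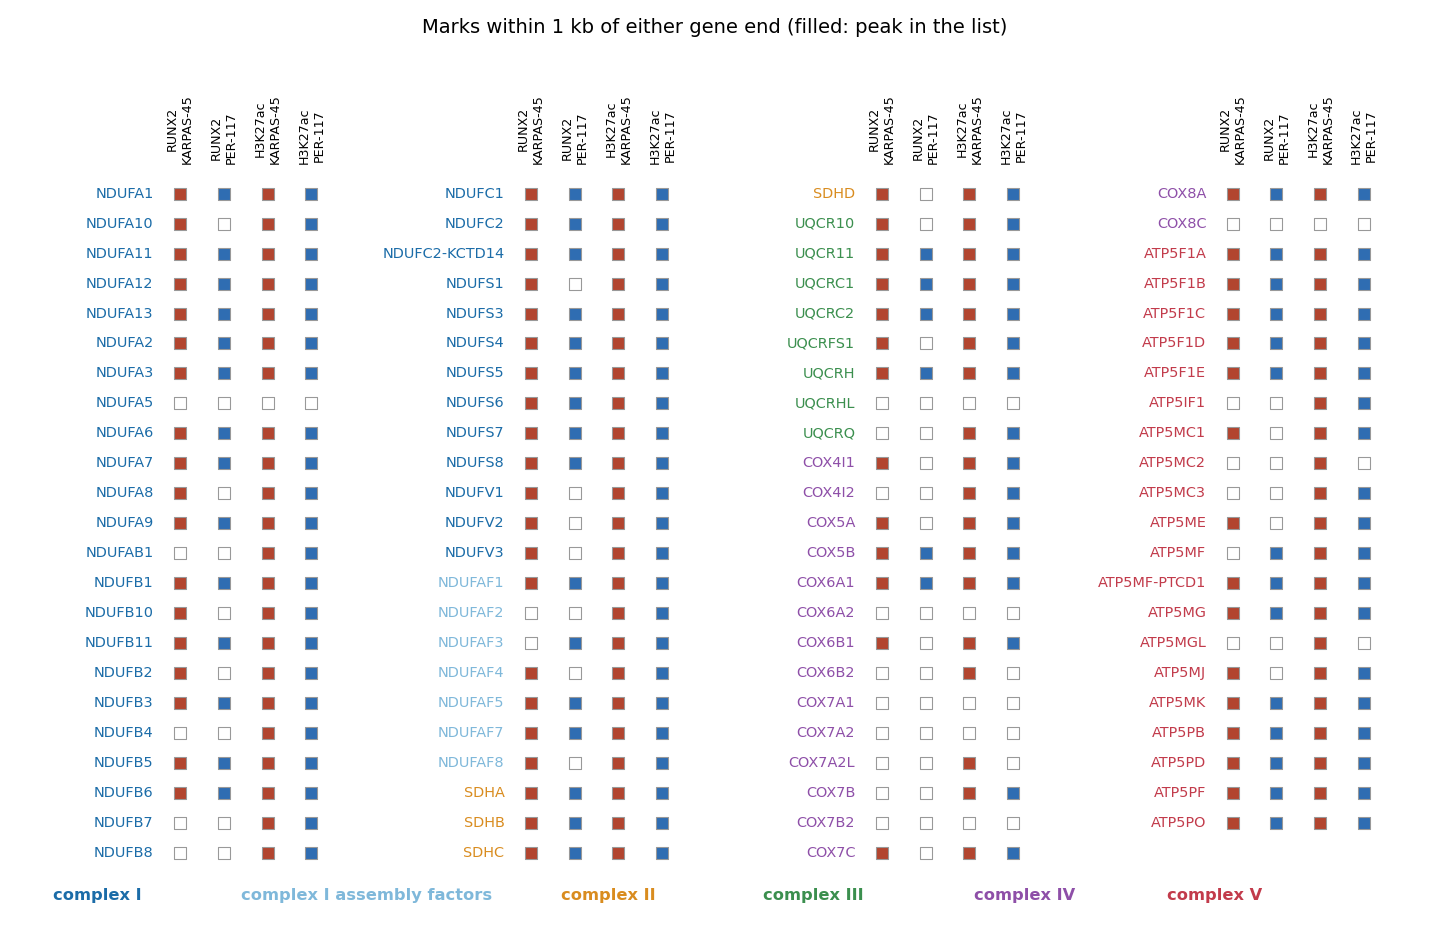
RUNX2 and H3K27ac calls within 1 kb of a gene end for the OXPHOS genes reported by name, by complex (colour of the name); filled squares stand for a call in KARPAS-45 (red) or PER-117 (blue), open squares for none. Filled RUNX2 squares run through most of complexes I, II and V, and 5 of the 7 genes with no filled square are complex IV genes.

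Complex II, succinate dehydrogenase, also works in the citric acid cycle, and its 4 genes were all bound in KARPAS-45 and all acetylated in both lines. SDHA, the flavoprotein with the succinate site, had a RUNX2 peak of 10.36-fold enrichment at chr5:217914-218359 in KARPAS-45 (-log10 q 21.18) and of 11.25-fold at chr5:217808-218159 in PER-117 (-log10 q 26.59). These fold enrichments are the authors' own and rank a peak within its list only: SDHA stood at the 71.7th percentile of bound genes in the KARPAS-45 list and at the 87.2nd in that of PER-117. Its summits lay 277 and 303 bases upstream of the SDHA start in KARPAS-45 and PER-117, beyond the left edge of the printed stretch, and 110 and 136 bases from the end of CCDC127, the neighbouring gene, so the peak cannot be given to either gene.

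SDHB, the iron-sulfur subunit, had 7.16-fold enrichment in KARPAS-45 at chr1:17053987-17054239, with its summit 69 bases upstream of the start, and 4.42-fold in PER-117 at chr1:17053890-17054162, with its summit 8 bases upstream. The PER-117 summit lay just outside that line's H3K27ac regions, of which 1 of 704 bp, chr1:17053329-17054032, touched the window. The PER-117 peak itself overlapped that region. SDHC, a membrane anchor, had low peaks, 4.45-fold at chr1:161314300-161314542 in KARPAS-45 and 2.99-fold at chr1:161313921-161314171 in PER-117. The PER-117 peak stood at the 1.88th percentile of bound genes in that line, and it does not overlap the KARPAS-45 peak. SDHD, the other anchor, had a peak of 7.62-fold in KARPAS-45 at chr11:112086769-112086987, with its summit 10 bases into the gene and 127 bases from the end of TIMM8B. No peak was called at SDHD in PER-117, where its H3K27ac region measured 1423 bp beside 1570 bp in KARPAS-45.

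The gene with the highest fold enrichment among OXPHOS genes was an ATP synthase gene in both lines, ATP5PB in KARPAS-45 and ATP5F1B in PER-117. ATP5F1B, the catalytic beta subunit, reached 22.40-fold in KARPAS-45 at chr12:56645801-56646542 and 19.48-fold in PER-117 at chr12:56645704-56646518, which placed it at the 94.7th and 97.2nd percentiles. The summits lay 45 and 7 bases from the gene's end in KARPAS-45 and PER-117, and 7711 and 7659 bases from BAZ2A, the nearest other gene. ATP5F1B thus ranked near the top of bound genes in both lines, at a site with no close neighbour.

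ATP5PB, of the peripheral stalk, had 23.20-fold enrichment in KARPAS-45 and 11.22-fold in PER-117, with summits 153 and 197 bases upstream of its start and 55 and 11 bases from WDR77, which it faces head to head. ATP5F1E, the epsilon subunit of the central stalk, had 12.41-fold in KARPAS-45 and 13.34-fold in PER-117, with summits 39 bases before and 61 bases after its start. ATP5F1A, the alpha subunit, had 9.86-fold in KARPAS-45 and 10.94-fold in PER-117, close to HAUS1, and ATP5PO, another stalk subunit, 11.35-fold in KARPAS-45 and 9.44-fold in PER-117. The alpha, beta and epsilon genes of the F1 head were thus bound in both lines, as were ATP5F1C (4.23-fold in KARPAS-45, 5.91-fold in PER-117) and ATP5F1D (4.66-fold in KARPAS-45, 4.03-fold in PER-117, at sites that do not overlap). ATP5PD had 2 gene-end peaks in KARPAS-45, of which the stronger, 13.73-fold, lay 527 bases from the gene's far end and outside H3K27ac. The PER-117 peak of 3.87-fold lay 7 bases from the start and overlapped a KARPAS-45 peak.

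Genes of the membrane part of the enzyme varied. ATP5MK (7.81-fold in KARPAS-45, 8.83-fold in PER-117) and ATP5MG (5.08-fold in KARPAS-45, 6.07-fold in PER-117), small subunits of that part, were bound in both lines. ATP5MC1, a gene for the rotating c ring, was bound in KARPAS-45 only (5.41-fold), as were ATP5MJ (6.59-fold) and ATP5ME (4.86-fold), small subunits of the membrane sector. ATP5MC3, another c-ring gene, and ATP5IF1, the inhibitor, had H3K27ac in both lines and RUNX2 in neither. ATP5MC2, the remaining c-ring gene, had neither mark at its span's ends in PER-117, yet RUNX2 peaks of 11.34-fold in KARPAS-45 and 14.64-fold in PER-117 lay within 1 kb of a start inside the span, with H3K27ac of 1607 bp in KARPAS-45 and 1667 bp in PER-117, so the count at gene ends misses it. ATP5MF was bound in PER-117 only (3.72-fold), by the peak that also serves as the PER-117 peak of the read-through gene ATP5MF-PTCD1. ATP5PF had weak peaks of 3.92-fold in KARPAS-45 and 2.83-fold in PER-117 in the start region it shares with GABPA, a subunit gene of GABP.

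Complex I, the largest complex, was bound at most of its genes, with fold enrichments of middle rank. NDUFS7, a core subunit that carries an iron-sulfur cluster, had 16.52-fold enrichment in KARPAS-45 at chr19:1383120-1383970 and 9.56-fold in PER-117 at chr19:1383105-1383944. Both peaks cover the whole printed stretch, but the summit lay 615 bases upstream of the start in KARPAS-45, against 152 bases in PER-117. NDUFB1, an accessory subunit, had 8.32-fold in KARPAS-45 and 13.55-fold in PER-117, the 59.8th and 92.0th percentiles, between its own start and that of CPSF2. NDUFC2 had 7.29-fold in KARPAS-45 and 8.66-fold in PER-117, and the same peaks were counted for NDUFC2-KCTD14. NDUFB5, which faces the ribosomal gene MRPL47, had 6.69-fold in KARPAS-45 and 10.23-fold in PER-117. Across the complex the peaks of KARPAS-45 ran from 4.13-fold to 16.5-fold, and a shared call did not mean a like rank among bound genes in both lines.

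In KARPAS-45 only, RUNX2 was bound at 8 of 38 complex I genes (21.1%), near the 19.2% of genes outside OXPHOS. Among the 8 were 3 of the flavoprotein module that accepts electrons from NADH: NDUFV1 (6.41-fold), NDUFV2 (4.39-fold) and NDUFV3 (9.33-fold). The others were NDUFS1 (4.51-fold), the large iron-sulfur subunit of the same arm, NDUFA8 (7.73-fold), NDUFA10 (4.13-fold), NDUFB2 (5.93-fold) and NDUFB10 (6.02-fold). All 8 were acetylated in both lines. With RUNX2 lists of equal length, only 7 OXPHOS genes of any complex were bound in KARPAS-45 only, so this set depended on list length. NDUFAB1, the mitochondrial acyl carrier protein, NDUFB4, NDUFB7 and NDUFB8 were acetylated in both lines and bound in neither. NDUFA5 had neither mark at its span's ends, and H3K27ac of 1286 bp in KARPAS-45 and 1126 bp in PER-117 at a start inside the span.

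The assembly factors, which help build complex I without staying in it, were acetylated in 8 of 8 cases in both lines. NDUFAF1 was bound at 6.99-fold in KARPAS-45 and 5.12-fold in PER-117, NDUFAF5 at 4.98-fold in KARPAS-45 and 5.60-fold in PER-117, and NDUFAF7 at 7.86-fold in KARPAS-45 and 4.63-fold in PER-117. The NDUFAF1 summits lay 17 and 46 bases downstream of an annotated start in KARPAS-45 and PER-117. NDUFAF8 (8.30-fold) and NDUFAF4 (6.31-fold) were bound in KARPAS-45 only, and NDUFAF2 in neither. NDUFAF3 counted as bound in PER-117 only (3.36-fold), but KARPAS-45 had an overlapping peak of 6.32-fold at a start inside the gene, just outside the window at the gene's end.

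Complex III, the cytochrome bc1 complex, had peaks of mixed rank in PER-117, with a median of 4.08-fold. Its KARPAS-45 peaks were weak, with a median of 4.49-fold and a highest value of 6.50-fold. UQCRH, the hinge protein, had that peak and 9.54-fold in PER-117, with summits 122 and 153 bases upstream of its start, inside the printed stretch, and 40 and 71 bases from LRRC41. UQCRC1 and UQCRC2, the core proteins, had 4.10-fold and 4.01-fold in KARPAS-45, and 4.08-fold and 3.72-fold in PER-117. UQCR11 had 5.75-fold in KARPAS-45 and 3.59-fold in PER-117. Apart from UQCRH, the shared peaks of this complex ranked in the lower part of bound genes in both lines. UQCRFS1, the Rieske iron-sulfur protein, had 4.88-fold and UQCR10 3.65-fold in KARPAS-45, with no peak in PER-117. UQCRQ was acetylated in both lines and bound in neither, and UQCRHL, a copy of UQCRH without introns, had no mark in either line.

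Complex IV, cytochrome c oxidase, held the strongest KARPAS-45-only peaks. COX5A, a subunit that faces the matrix, had 13.42-fold enrichment at chr15:74937676-74938504, with its summit 71 bases upstream of its start and H3K27ac of 6722 bp in KARPAS-45. PER-117 had H3K27ac of 1801 bp there and no RUNX2 peak. COX4I1, the widely expressed form of subunit IV, had 11.50-fold in KARPAS-45, with its summit 132 bases upstream of its start and 19 bases from EMC8, and no peak in PER-117. COX6B1 (6.08-fold) and COX7C (3.36-fold, the lowest OXPHOS peak of KARPAS-45) were likewise bound there only. In both lines, RUNX2 was bound at COX8A (5.28-fold in KARPAS-45, 6.28-fold in PER-117), COX6A1 (4.57-fold in KARPAS-45, 5.78-fold in PER-117) and COX5B (10.01-fold in KARPAS-45, 3.52-fold in PER-117), besides 1 gene on chromosome 8. COX5B stood at the 69.9th percentile of bound genes in KARPAS-45 but only at the 8.79th in PER-117.

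The tissue-restricted isoforms and copies had no RUNX2 at their ends. This held for all 9 of COX4I2, COX6A2, COX6B2, COX7A1, COX7B2, COX8C, UQCRHL, ATP5MGL and COXFA4L2, while H3K27ac stood at an end of 4 of them in KARPAS-45, against 2 in PER-117. Their widely expressed partners COX4I1, COX6A1, COX6B1, COX7A2, COX7B, COX8A, UQCRH, ATP5MG and COXFA4 were bound in 7 of 9 cases in KARPAS-45, against 5 of 9 in PER-117, and 8 of them were acetylated in each line. Over all genes outside OXPHOS, KARPAS-45 had RUNX2 at 48.2% and H3K27ac at 60.9%. The like shares of PER-117 were 32.4% and 55.3%. Most of the isoforms lacked H3K27ac, and genes without the mark were seldom bound. Of bound genes outside OXPHOS, 95.6% carried it in KARPAS-45, against 97.5% in PER-117. COXFA4, which the symbol rule leaves out, had the strongest peak of the partners, 28.15-fold in KARPAS-45 and 14.45-fold in PER-117. The acetylated regions at isoforms were narrow at COX4I2, a lung form (855 bp in KARPAS-45, 277 bp in PER-117), and at COX6B2, a testis form (330 bp in KARPAS-45, none in PER-117). They were wider at COXFA4L2 (3723 bp in KARPAS-45, 888 bp in PER-117) and at ATP5MGL (10360 bp in KARPAS-45, none in PER-117). COXFA4L2 also had 1 RUNX2 peak inside its span, away from the ends, in KARPAS-45 but none in PER-117.

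Genes acetylated in KARPAS-45 only were COX6B2, COX7A2L (335 bp), ATP5MC2 (690 bp) and ATP5MGL (10360 bp, a region that began inside the gene). Genes acetylated at a gene end in neither line were NDUFA5, UQCRHL, COX6A2, COX7A1, COX7A2, COX7B2 and COX8C. Part of this came from starts that lie inside the annotated span. COX7A2, the widely expressed form of its subunit, had H3K27ac of 1685 bp in KARPAS-45 and 1664 bp in PER-117 at an inner start, with RUNX2 of 4.54-fold in KARPAS-45. COX7A2L, a supercomplex factor, had inner-start RUNX2 of 7.54-fold in KARPAS-45 and 7.63-fold in PER-117, with H3K27ac of 5997 bp in KARPAS-45 and 3230 bp in PER-117. Over the 78 members with an annotated start, counted within 1 kb of any start, H3K27ac stood at 74 in both lines (94.9%, where other genes reached 61.4% in KARPAS-45 but 56.9% in PER-117). The 4 without it were COX6A2, COX6B2, COX7B2 and COX8C, all tissue-restricted. RUNX2 counted in this way stood at 65 of 78 genes in KARPAS-45 (83.3%, against 50.3%) and 44 in PER-117 (56.4%, against 34.3%).

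As ranked among the bound genes of each line, OXPHOS peaks were of middling strength. In KARPAS-45 the strongest gene-end peak of each bound OXPHOS gene ran from 3.36-fold to 23.2-fold with a median of 6.76-fold, against a median of 7.18-fold for other bound genes. In PER-117 the range was 2.83-fold to 19.5-fold with a median of 5.53-fold, against 5.81-fold. In KARPAS-45, 3 OXPHOS genes stood in the top 10% of bound genes and 4 in the bottom 10%, and in PER-117, 3 stood in the top 10% and 6 in the bottom 10%. ATP5F1B was in the top 10% in both lines. Over the 51 genes bound in both lines, fold enrichments in the lines had a rank correlation of 0.43, beside 0.495 over 5773 other such genes. Genes share their libraries, so this is a description. OXPHOS genes bound in KARPAS-45 only had a median of 6.05-fold there, against 7.02-fold for those bound in both lines. Other genes had 5.79-fold where bound in KARPAS-45 only, against 8.41-fold where bound in both.

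**Figure D3:**
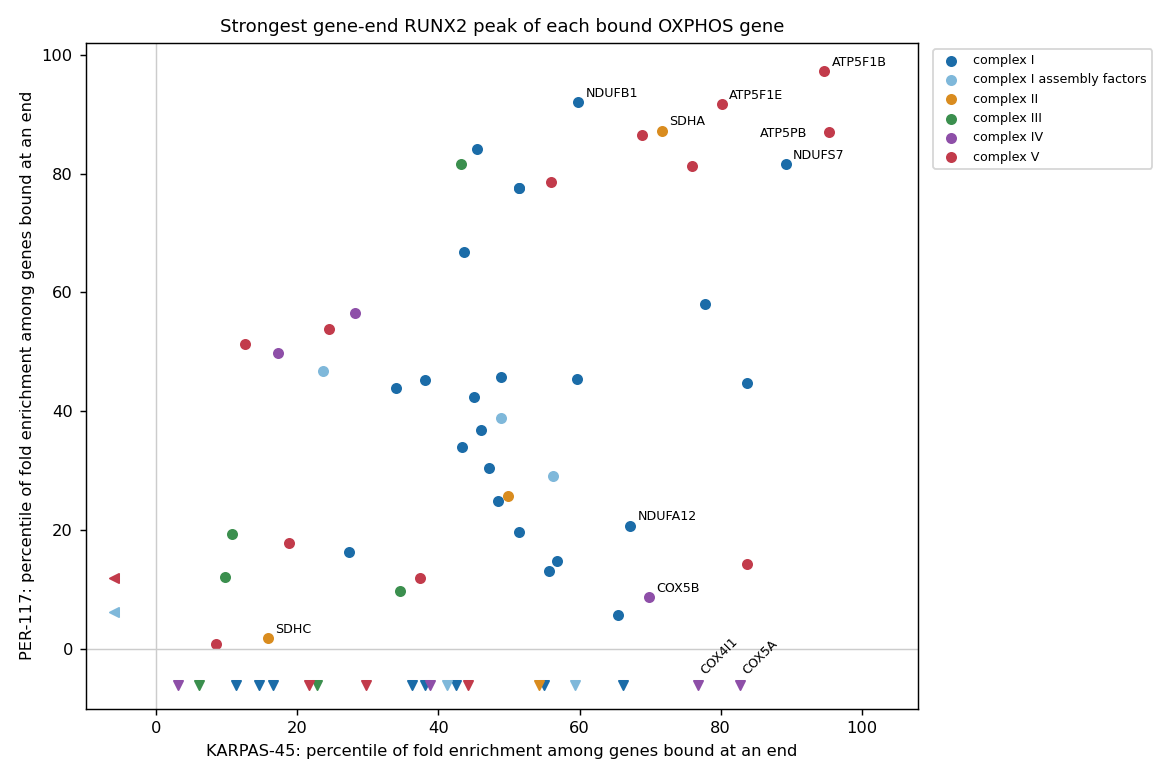
Percentile of the strongest gene-end RUNX2 peak among all bound protein-coding genes, in KARPAS-45 (x axis) and PER-117 (y axis), for each bound OXPHOS gene reported by name, coloured by complex; triangles at the edges are genes bound in 1 line only. ATP5F1B, ATP5PB, ATP5F1E and NDUFS7 stand at the upper right, SDHC near the lower left, and COX5A and COX4I1 are the KARPAS-45-only genes of highest rank.

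RUNX2 summits, taken from peaks within 1 kb of a gene end, lay mostly near the start. Of 61 KARPAS-45 peaks at OXPHOS genes with an annotated start, 49 had the summit within 250 bp of it (80.3%, against 62.7% of other genes), with a median distance of 95 bp. Of 42 PER-117 peaks, 31 did (73.8%, against 54.1%), with a median of 131 bp. Upstream of the start lay 50 of 61 summits in KARPAS-45 (82.0%, against 64.8%) and 26 of 42 in PER-117 (61.9%, against 57.0%). The 250 bp just before the start held 41 of 61 in KARPAS-45 (67.2%, against 47.4%) and 19 of 42 in PER-117 (45.2%, against 32.0%). OXPHOS genes are short, with a median span of 10198 bp against 24289.5 bp for other genes, and the part of gene length in these shares was not tested.

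**Figure D4:**
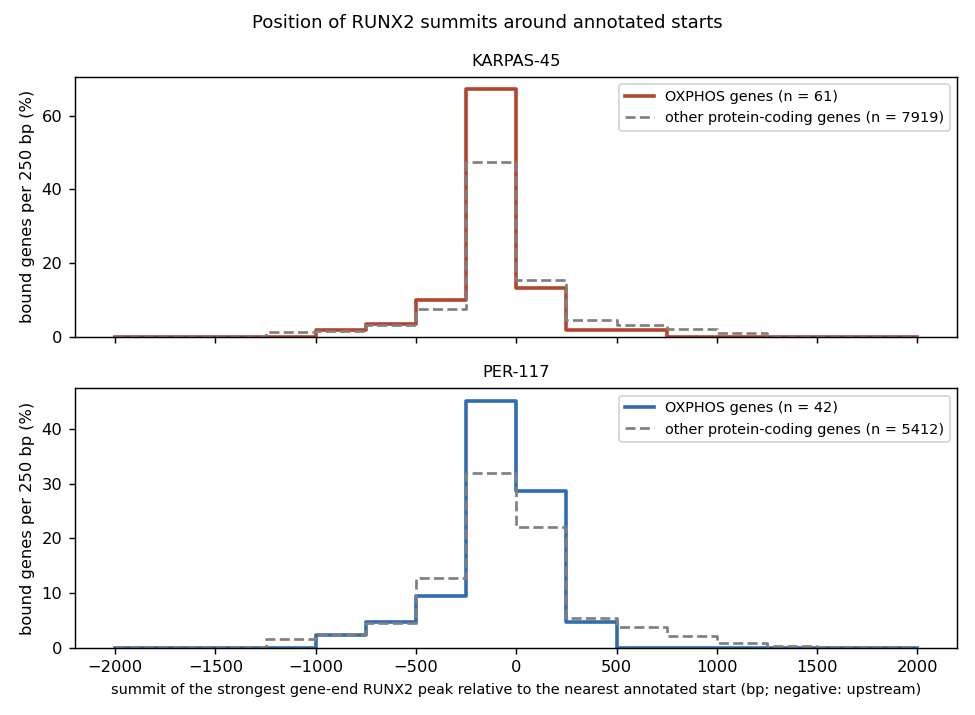
Distance of RUNX2 summits from the nearest annotated start (x axis, bp, negative upstream) as the share of bound genes in each 250-bp step (y axis), for OXPHOS genes (solid) and other bound genes (dashed), in KARPAS-45 (top) and PER-117 (bottom). The OXPHOS lines peak in the step just upstream of the start in both lines, above the dashed lines.

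Many of these promoters lie beside another gene. Another protein-coding gene's end lay within 1 kb of the summit at 35 of 71 bound OXPHOS genes in KARPAS-45 (49.3%, against 29.9% of other bound genes) and at 31 of 55 in PER-117 (56.4%, against 33.5%). It was closer than the OXPHOS gene's own end at 17 of 71 in KARPAS-45 (23.9%, against 15.2%) and 14 of 55 in PER-117 (25.5%, against 17.2%). The summit lay in H3K27ac of the same line at 70 of 71 genes in KARPAS-45 (98.6%, against 91.6%), and at 52 of 55 in PER-117 (94.5%, against 92.2%). Where both lines were bound, the peaks overlapped at 48 of 51 genes (94.1%, against 93.5%), the exceptions being SDHC, ATP5F1D and ATP5MF-PTCD1.

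The H3K27ac regions at OXPHOS genes were about as wide as at other acetylated genes. The widest region touching a gene's ends had a median of 3312 bp in KARPAS-45, against 3089.5 bp at other genes, and of 1847 bp in PER-117, against 1888 bp. The widest was at NDUFC1 in KARPAS-45, 36641 bp, where PER-117 had 2167 bp. In KARPAS-45, bound OXPHOS genes had a median of 3596 bp and unbound ones 2210 bp. Other acetylated genes had 3428 bp where bound and 2102.5 bp where not. In PER-117, bound OXPHOS genes had a median of 1855 bp and unbound ones 1748 bp, while other acetylated genes had 2128 bp where bound and 1588 bp where not.

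In the window from 250 bases before to 50 after a start, the RUNX core occurred at 13 of 78 OXPHOS genes (16.7%), against 14.5% of 15735 other genes and 12.8% of those acetylated in both lines. Among the 41 OXPHOS genes bound in both lines with an entry, 8 held it (19.5%), against 14.6% of other genes bound in both. Of the 16 bound in neither line, 1 held it (6.25%), against 15.4% of other genes bound in neither and 10.7% of those also acetylated in both lines. That gene was COX7A2L, which had RUNX2 at a start inside its span in both lines. The ETS core occurred at 23 of 78 (29.5%, against 16.4% of other genes and 24.9% of those acetylated in both lines), the YY1 core at 10 (12.8%, against 3.16% and 5.37%) and the NRF1 core at 5 (6.41%, against 1.97% and 3.04%). Promoters with the RUNX core included those of ATP5F1A, ATP5F1E, SDHA, UQCRH and NDUFV1, and those with the YY1 core NDUFS7, SDHB and UQCRC1. Binding of these factors other than RUNX2 was not measured.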

How the data were processed

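RUNX2 and H3K27ac ChIP-seq peak lists of KARPAS-45 and PER-117, 1 per line and antibody, were used as deposited (the 3 inputs were left out). Per the submitters' processing notes, the tools were STAR 2.4.2a and MACS2 and the build hg38, with their roles, parameters and choice of input not given in the sources used here. The authors deposited, per peak, −log10 p and −log10 q, a display score and the fold enrichment, which is a linear ratio. The lowest −log10 q for KARPAS-45 was 1.308 (RUNX2) and 0.431 (H3K27ac), and for PER-117 1.301 (RUNX2) and 1.01 (H3K27ac).

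Summits of 1 RUNX2 peak were joined and the highest fold enrichment kept. A gene counted as bound or acetylated when a peak overlapped, by 1 bp or more, a window of 1 kb either side of either end of its RefSeq span (GRCh38.p14). Spans carry no strand, exons or introns; starts and strands came from the RefSeq promoter table, which has 78 of the 96 genes. Percentiles rank the strongest gene-end peak of each bound gene among all bound protein-coding genes of the same line only. Shares have Wilson 95% intervals and differences Newcombe intervals, which cover counting error over genes only. Lists of unequal length may differ in depth, antibody or threshold, so counts were not read as amounts of binding. The overlap code was first tested on simulated data. The code ran in Python 3.11.15 with pandas 2.3.3 and numpy 2.4.6, with scipy 1.17.1 for the rank correlation and matplotlib 3.10.9 for plots.

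Members, gene lists and motifs were chosen with earlier results of these data known. Named with values were the SDH genes, up to 4 genes a complex bound in both lines (highest lower fold enrichment) and up to 4 bound in KARPAS-45 only, those bound in PER-117 only, all bound or acetylated in neither line or acetylated in 1, and isoforms with their partners; further genes were named to complete a count or because they stood out, after their values were seen. Proteins were not printed, and some genes the rule names are counted but not reported here. Alternatives were other windows, gene starts only, structural subunits only, summits in the window, stricter or shorter RUNX2 and H3K27ac lists, and, chosen after seeing the data, any annotated start and genes acetylated in both lines.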

Additional observations from a re-analysis of the deposited data

Results flagged for a closer look

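RUNX2 calls on the mitochondrial genome, which encodes the remaining OXPHOS subunits, lie outside the gene-end counts. KARPAS-45 had 11 joined intervals there, from 31 deposited lines, which covered 12974 bp and touched 13 of 13 coding genes. PER-117 had 3 intervals, which touched COX1 and ND5. Fold enrichments were low, between 1.37 and 1.92 in KARPAS-45, against 1.44 and 1.79 as the lowest and highest of PER-117, and no H3K27ac region was called there in either line. The inputs over this genome were not analysed here.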

How the results depend on the processing

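The 8 counts and share differences gave 77 values under 13 alternatives, of which 66 stayed within 1.5 times the reported count, or kept their sign within the reported interval of the share difference. When RUNX2 peaks needed a −log10 q of at least 10, 47 members were bound in KARPAS-45, 25 in PER-117 and 18 in both. With the 5000 strongest peaks, 4 were bound in KARPAS-45, 14 in PER-117 and 4 in both. With a KARPAS-45 list as long as that of PER-117, 42 were bound in KARPAS-45, 7 of them there only, and 20 in PER-117 only. With a KARPAS-45 H3K27ac list of equal covered length, 27 members were acetylated in KARPAS-45 and 26 in both lines. These lists hold fewer peaks by construction. The share difference between acetylated OXPHOS and other genes was positive in 24 of 26 alternatives, but its size varied. The 7.62 points of PER-117 became 0.33 with any annotated start, 1.63 with a 2.5-kb window and 2.03 with the gene start only. The 4.1 points of KARPAS-45 became 0.98 with the 2.5-kb window and 8.62 with the gene start only or any start. It turned to -4.92 points in KARPAS-45 with the 5000 strongest peaks and to -0.85 in PER-117 with that minimum −log10 q; the cause was not tested. No paired analysis was possible because each line has 1 library per antibody and no test was made. Depth is unknown, and a missing call cannot be told apart from shallow sequencing.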

Other observations

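Of 40 further genes of the pathway that the symbol rule leaves out (assembly factors of complexes II to V and others, cytochrome c and its partners), 40 had H3K27ac at an end in each line. RUNX2 was bound at 35 of them in KARPAS-45, against 27 in PER-117, and at 25 in both. Among other acetylated protein-coding genes, 75.7% were bound in KARPAS-45, against 57.1% in PER-117, and of those acetylated in both lines 54.5% were bound in both. Several had stronger peaks than most subunits. UQCC3, a complex III assembly factor, had 20.9-fold enrichment in KARPAS-45 and 13.08-fold in PER-117, and LRPPRC, which stabilises mitochondrial mRNA, 12.9-fold in KARPAS-45 and 14.66-fold in PER-117. BCS1L, which inserts the Rieske protein, had 20.62-fold in KARPAS-45 and 5.56-fold in PER-117. The complex II assembly factor SDHAF1 had 15.08-fold in KARPAS-45 and 11.27-fold in PER-117. COX14 (18.84-fold in KARPAS-45, 7.22-fold in PER-117), OXA1L (17.99-fold in KARPAS-45, 5.78-fold in PER-117) and COX15 (15.72-fold in KARPAS-45, 4.89-fold in PER-117) serve complex IV or the insertion of membrane proteins. SURF1, COX17 and TMEM126B had no RUNX2 in either line, and SDHAF4 and PET100 had it in PER-117 only.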
